A study of Homo sapiens with 12 samples.

Results

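Expression of 9 detoxification and oxidative stress genes was examined by RNAseq in the prostate cancer line C4-2, which descends from LNCaP, responds to androgens and was grown in RPMI medium with serum. The genes were NQO1, NQO2, CBR1, CBR3, EPHX1, PTGR1, UGDH, OSGIN1 and OSGIN2, which are 9 of the 54127 genes in the count files. Cells of the control group received the vehicle DMSO, and cells of the other group received PBKi (the compound HI-TOPK-032, which inhibits the kinase PBK) at 1 µM for 6 h. Each group had 6 libraries. The comparison addresses which transcripts change when PBK is inhibited in prostate cancer cells. The labels give no genetic change in either group and do not state that replicates were separate cultures, so the p-values below measure only the spread between these libraries, which may be technical. The 9 genes were selected on measured values of this same contrast, so their differences between PBKi and DMSO are given as a description without a test.

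Quinones, carbonyls and epoxides are reactive products of drugs, steroids, prostaglandins and oxidised lipids. Quinone reductases and carbonyl reductases use NADPH or related cofactors to reduce them, epoxide hydrolase opens epoxides with water, and UDP-glucuronate provides the sugar that glucuronosyltransferases attach to the resulting hydroxyl groups. Many genes of this kind carry antioxidant response elements, DNA sites bound by the transcription factor NRF2 (encoded by NFE2L2) with a small MAF protein. The adaptor KEAP1 directs NRF2 to degradation until electrophiles or oxidants modify it. In prostate cells glucuronidation is also a route by which androgens are inactivated.

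All 9 genes passed the filter on low counts (at least 10 counts in at least 6 libraries) and had more transcript in PBKi. OSGIN1 had the largest difference, with a log2 fold change of 2.87 (SE 0.10), followed by PTGR1 (2.18, SE 0.11), NQO1 (1.41, SE 0.074) and CBR3 (1.33, SE 0.12). The other 5 genes lay between 0.22 for UGDH and 0.54 for NQO2. The median of the 9 was 0.54, against -0.012 over the 14505 genes tested. With edgeR (quasi-likelihood test, Benjamini-Hochberg adjusted p below 0.05), 9 of the 9 were called higher and 0 lower, where 20.1% of all genes tested were called higher and 21.5% lower. Since the genes were picked on this contrast, nothing is read from that count. The PBKi and DMSO libraries did not overlap for 8 of the 9 genes, all higher in PBKi, where 10.5% of all genes had no overlap with PBKi higher and 9.68% had none with PBKi lower.

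**Figure D1:**
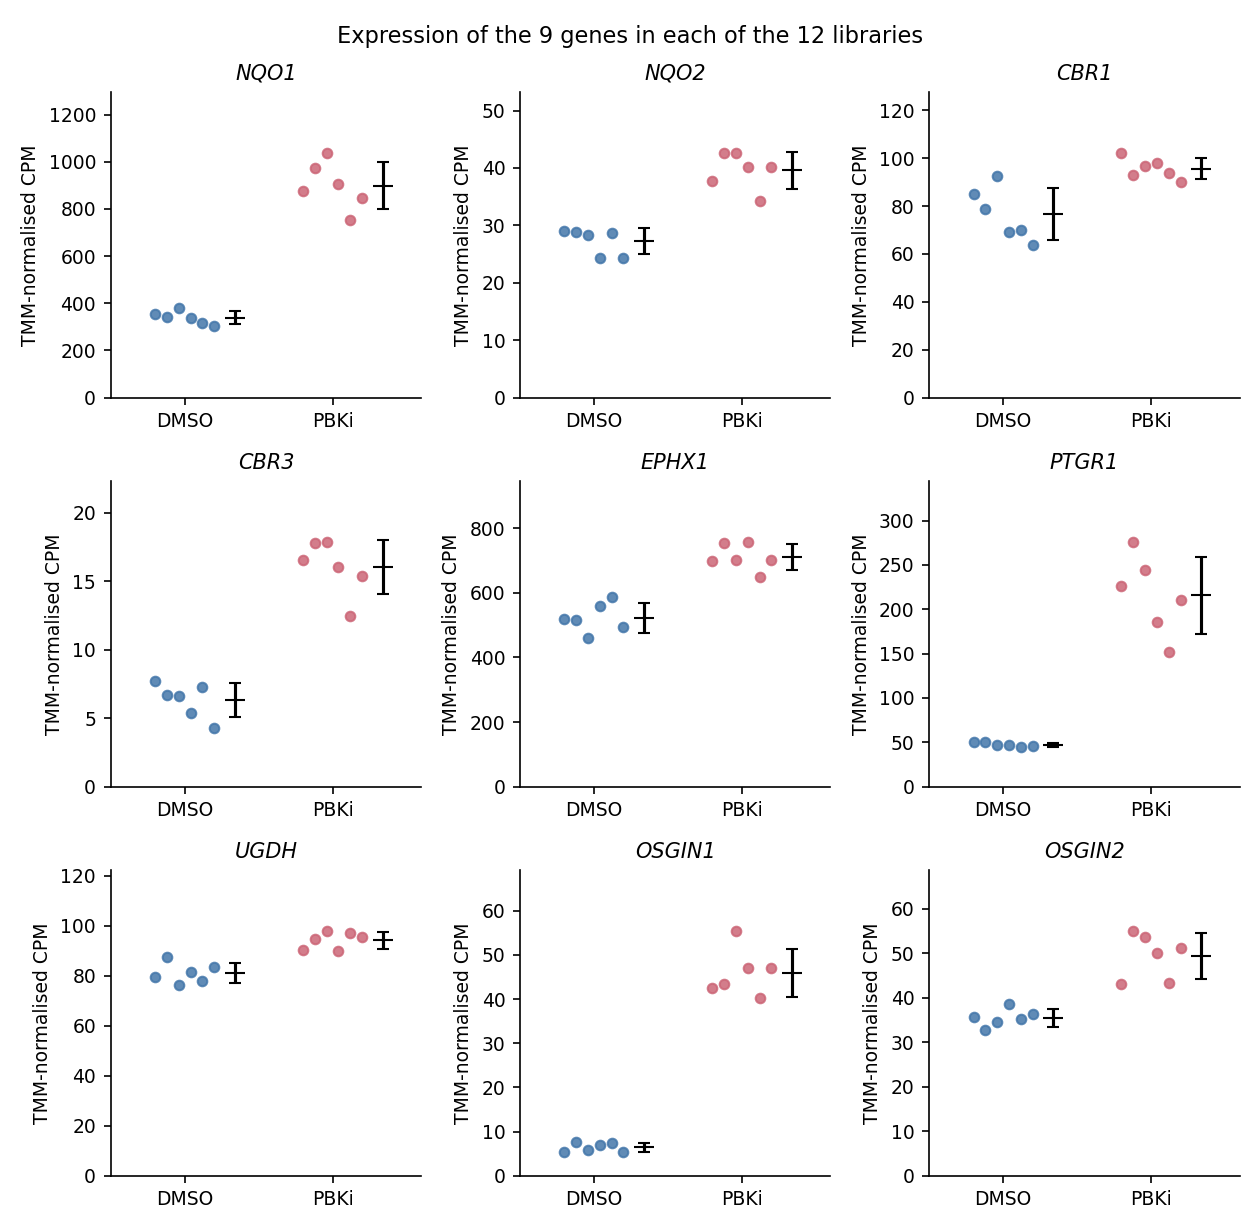
TMM-normalised CPM (read counts scaled to library size and composition) of each gene on a linear axis from 0, with 1 point per library, replicates 1 to 6 from left to right within a group, and a bar for the mean and SD beside them. The PBKi points lie above every DMSO point in 8 panels, and in the CBR1 panel DMSO replicate 3 at 92.5 CPM lies above PBKi replicate 6 at 90.2 CPM.

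The DNA before the start of these genes is shown because the antioxidant response element is the best known control sequence of the group. In the 1000 bases before the canonical start in GRCh37, the core TGACNNNGC was searched on both strands. The core was present for 4 of the 9 genes and in 33.7% of the 12352 protein-coding genes tested. It occurred once before NQO1 (chr16:69760894-69760934, minus strand, in an exon of the divergent transcript NQO1-DT) and once before OSGIN1 (chr16:83986272-83986312, plus strand, in an OSGIN1 intron of a longer transcript). CBR1 had 2 matches, at chr21:37441784-37441824 in an intron of SETD4 and at chr21:37442147-37442187, where the antisense CBR1-AS1 has an exon. PTGR1 had 2 matches between genes, of which the one at chr9:114362608-114362648 is shown. Each window of 41 bases below is read in the direction of its gene, with the core in capitals, or its reverse complement where the core lies on the opposite strand.
NQO1, 455 bases before the start: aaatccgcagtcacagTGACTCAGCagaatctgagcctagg
OSGIN1, 557 bases before the start: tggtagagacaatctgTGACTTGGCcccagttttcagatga
CBR1, 522 bases before the start, opposite strand: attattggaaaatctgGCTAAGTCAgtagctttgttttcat
CBR1, 159 bases before the start, opposite strand: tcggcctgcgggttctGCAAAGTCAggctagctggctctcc
PTGR1, 705 bases before the start, opposite strand: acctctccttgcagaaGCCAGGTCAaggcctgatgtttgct

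The letters TGANTCA, the site of the AP-1 factors, were in the same window for 2 of the 9 genes and for 17.9% of the protein-coding genes tested. The NQO1 match overlapped the core printed above, in which TGACTCA are the first letters of the capitals. OSGIN1 had a separate match 97 bases before its start (chr16:83986732-83986770, plus strand), shown with the match in capitals.
OSGIN1, AP-1 letters: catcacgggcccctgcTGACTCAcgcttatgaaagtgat
These matches describe the sequence only. Among the 4 genes with the largest differences, NQO1, PTGR1 and OSGIN1 had the core in this window and CBR3 did not, and CBR1, with a log2 fold change of 0.32, had it at 2 places.

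NQO1 (ENSG00000181019, chr16:69740899-69760571, minus strand) encodes the cytosolic quinone reductase that converts quinones to hydroquinones without a semiquinone step. Its expression ranged from 306 to 381 CPM in DMSO with a median of 339.6, and from 755 to 1037 CPM in PBKi with a median of 891. Every PBKi library was above every DMSO library. The means were 339 ± 27.1 CPM and 899 ± 98.8 CPM (SD, n = 6 each), a 2.65-fold difference, and NQO1 ranked 284 of 14505 genes from the top by log2 fold change. Its paralogue NQO2 (ENSG00000124588, chr6:2988221-3019989, plus strand) reduces quinones with dihydronicotinamide riboside in place of NAD(P)H. NQO2 ranged from 24.3 to 29.1 CPM in DMSO (median 28.5) and from 34.2 to 42.6 CPM in PBKi (median 40.1), with a log2 fold change of 0.54 (SE 0.069). The groups did not overlap, although NQO2 lay far below NQO1 in both of them. Per kilobase of exon, the level of NQO1 was 10.2 times that of NQO2 in DMSO (8.98 to 11.3 over libraries) and 18.5 times in PBKi (17.2 to 19.9).

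CBR1 (ENSG00000159228, chr21:37442239-37445464, plus strand) and CBR3 (ENSG00000159231, chr21:37507377-37518860, plus strand) encode NADPH-dependent carbonyl reductases and lie 61913 bp apart. CBR1 ranged from 63.7 to 92.5 CPM in DMSO (median 74.4) and from 90.2 to 102 CPM in PBKi (median 95.2). It was the only one of the 9 genes whose groups overlapped, because DMSO replicate 3 exceeded the lowest PBKi library, replicate 6. Its mean was 76.5 ± 10.9 CPM in DMSO and 95.6 ± 4.26 CPM in PBKi (SD, n = 6 each), which is 0.32 on the log2 scale (SE 0.076). CBR3 was a low-level transcript at 4.28 to 7.72 CPM in DMSO (median 6.63) and 12.5 to 17.8 CPM in PBKi (median 16.3), from 51 to 183 counts per DMSO library and 186 to 421 per PBKi library. Its groups were apart, with a 2.51-fold difference of the fitted means. The level of CBR1 per kilobase was 5.04 times that of CBR3 in DMSO (3.93 to 6.06) and 2.47 times in PBKi (2.13 to 3.06).

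CBR3 shares 71.1% of its exon bases with the antisense transcript CBR3-AS1. The sources used here do not say whether strand was used in counting, so reads of these genes cannot be told apart with certainty. The level of CBR3 per kilobase divides by all its exon bases, the shared ones included, and carries the same limit. So do its ratio to CBR1 and its place in the order of levels below. CBR3-AS1 was itself higher in PBKi, at 9.18 ± 1.45 CPM against 6.84 ± 1.54 CPM in DMSO (SD, n = 6 each, log2 fold change 0.39, SE 0.14, adjusted p = 0.0269, quasi-likelihood test of edgeR, Benjamini-Hochberg adjusted over 14505 genes).

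PTGR1 (ENSG00000106853, chr9:114312002-114362173, minus strand) encodes prostaglandin reductase, which reduces the carbon double bond of prostaglandin and leukotriene metabolites and of lipid-derived alkenals. It was the tightest of the 9 in DMSO and the most spread in PBKi. DMSO libraries ranged from 44.3 to 49.9 CPM (median 47.2, coefficient of variation 4.67%) and PBKi libraries from 152 to 276 CPM (median 218, coefficient of variation 20.2%). The lowest PBKi library was replicate 5 and the highest replicate 2, and both were well above DMSO. The means were 47.4 ± 2.21 CPM and 216 ± 43.6 CPM (SD, n = 6 each), a 4.55-fold difference. Its relative PTGR2, which acts on the same class of enones, was at 14.5 ± 1.31 CPM in DMSO and 17.0 ± 0.975 CPM in PBKi (SD, n = 6 each), which is 0.22 on the log2 scale (SE 0.071, adjusted p = 0.0187, same test). In replicates 1 to 3 alone and in replicates 4 to 6 alone PTGR2 did not pass (edgeR adjusted p = 0.109 and 0.124).

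EPHX1 (ENSG00000143819, chr1:225997826-226033264, plus strand) encodes the microsomal epoxide hydrolase. It was abundant in DMSO, at 460.2 to 586 CPM (median 517), and ranged from 649 to 757 CPM in PBKi (median 701). Its groups did not overlap, and the log2 fold change was 0.44 (SE 0.061). The soluble epoxide hydrolase EPHX2, which turns over fatty acid epoxides, fell by 0.45 on the log2 scale (SE 0.062, adjusted p = 1.95e-05, same test), with 46.6 ± 3.80 CPM in DMSO and 34.0 ± 2.02 CPM in PBKi (SD, n = 6 each).

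UGDH (ENSG00000109814, chr4:39500375-39529931, minus strand) encodes the dehydrogenase that oxidises UDP-glucose to UDP-glucuronate. It ranged from 76.3 to 87.7 CPM in DMSO (median 80.6) and from 90.0 to 97.8 CPM in PBKi (median 95.2). The gap between the groups was narrow, and with a log2 fold change of 0.22 (SE 0.048) it had the smallest difference of the 9 genes. UGDH also had the smallest spread relative to expression, with a dispersion at percentile 6.38 of all genes tested, where PTGR1 was at 81.1 and CBR3 at 77.4. The enzyme before it in the pathway, UGP2, which makes UDP-glucose, was at 64.3 ± 4.75 CPM in DMSO and 63.8 ± 4.47 CPM in PBKi (SD, n = 6 each, log2 fold change -0.014, SE 0.060, edgeR adjusted p = 0.870). UGDH-AS1, an antisense transcript over 12.8% of the exon bases of UGDH, rose from 10.4 ± 0.618 to 16.6 ± 3.91 CPM (SD, n = 6 each, log2 fold change 0.68, SE 0.12, edgeR adjusted p = 0.000330). As for CBR3, reads of UGDH and its antisense transcript cannot be told apart with certainty.

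OSGIN1 (ENSG00000140961, chr16:83964916-83999937, plus strand) encodes oxidative stress induced growth inhibitor, a flavin monooxygenase-like protein. It was scarce in DMSO, at 5.29 to 7.68 CPM (median 6.36), from 63 to 159 counts per library. In PBKi it ranged from 40.1 to 55.4 CPM (median 45.2), from 565 to 1307 counts. The lowest PBKi library was more than 5 times the highest DMSO library. The means were 6.41 ± 1.05 CPM and 45.9 ± 5.36 CPM (SD, n = 6 each), with a fitted difference of 7.30-fold, and OSGIN1 ranked 103 of 14505 genes from the top. Its exons share 8.22% of their bases with MLYCD on the same strand, which was at 18.2 ± 2.27 CPM in DMSO and 18.5 ± 1.16 CPM in PBKi (SD, n = 6 each, edgeR adjusted p = 0.745).

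The relative OSGIN2 (ENSG00000164823) ranged from 32.6 to 38.6 CPM in DMSO (median 35.5) and from 43.0 to 54.9 CPM in PBKi (median 50.6), without overlap and with a log2 fold change of 0.48 (SE 0.069). It lies on the plus strand of chromosome 8 of GRCh37, from 90914077 to 90940116. NBN, a DNA repair gene on the other strand that shares 17.8% of the exon bases of OSGIN2, was also higher in PBKi, with a log2 fold change of 0.26 (SE 0.054, edgeR adjusted p = 0.000940). Per kilobase, the level of OSGIN2 was 6.77 times that of OSGIN1 in DMSO (5.07 to 8.19 over libraries) and 1.29 times in PBKi (1.16 to 1.51). This ratio depends on the length used, since per kilobase of the longest coding transcript it was 2.99 in DMSO and 0.569 in PBKi (0.511 to 0.667), with OSGIN1 then the higher of the pair in PBKi.

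Levels between genes were compared as TMM-normalised CPM per kilobase of exon, with the bases of all annotated exons of a gene as its length. In DMSO the order was EPHX1 at 211 ± 18.3, NQO1 at 114 ± 9.12, CBR1 at 31.2 ± 4.43, UGDH at 20.1 ± 1.02, PTGR1 at 12.6 ± 0.587, NQO2 at 11.2 ± 0.942, OSGIN2 at 7.63 ± 0.427, CBR3 at 6.33 ± 1.27 and OSGIN1 at 1.15 ± 0.190 (SD, n = 6 each). EPHX1 was at percentile 99.1 of all genes tested and OSGIN1 at percentile 23.3. The neighbours PTGR1 and NQO2, and OSGIN2 and CBR3, overlapped in range and kept their order in 5 of 6 libraries, and every other neighbouring pair was apart. In PBKi, NQO1 at 303 ± 33.2 and EPHX1 at 287 ± 16.3 led the order (SD, n = 6 each), with overlapping ranges and NQO1 higher in 4 of 6 libraries. PTGR1 followed at 57.2 ± 11.6, with a range that overlapped that of CBR1 at 39.0 ± 1.74, although PTGR1 was higher in 6 of 6 libraries. NQO2 at 16.3 ± 1.31 and CBR3 at 16.0 ± 1.98 could not be ordered at this length, since NQO2 was higher in 3 of 6 libraries. OSGIN1, at 8.26 ± 0.965, was again lowest and stood at percentile 62.4 of genes tested. Per kilobase of the longest coding transcript the order in DMSO was the same, but in PBKi it was not. EPHX1 at 397 ± 22.6 was then above NQO1 at 356 ± 39.1 in 5 of 6 libraries, NQO2 at 26.2 ± 2.11 was above CBR3 at 16.0 ± 1.98, and OSGIN1 at 20.6 ± 2.40 was above CBR3 and OSGIN2 (11.7 ± 1.21) (SD, n = 6 each). NQO1 and EPHX1 together made up 73.5% to 76.9% of the summed CPM of the 9 genes in every library, and that sum was 1142 ± 42.4 CPM in DMSO and 2166 ± 177 CPM in PBKi (SD, n = 6 each).

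**Figure D2:**
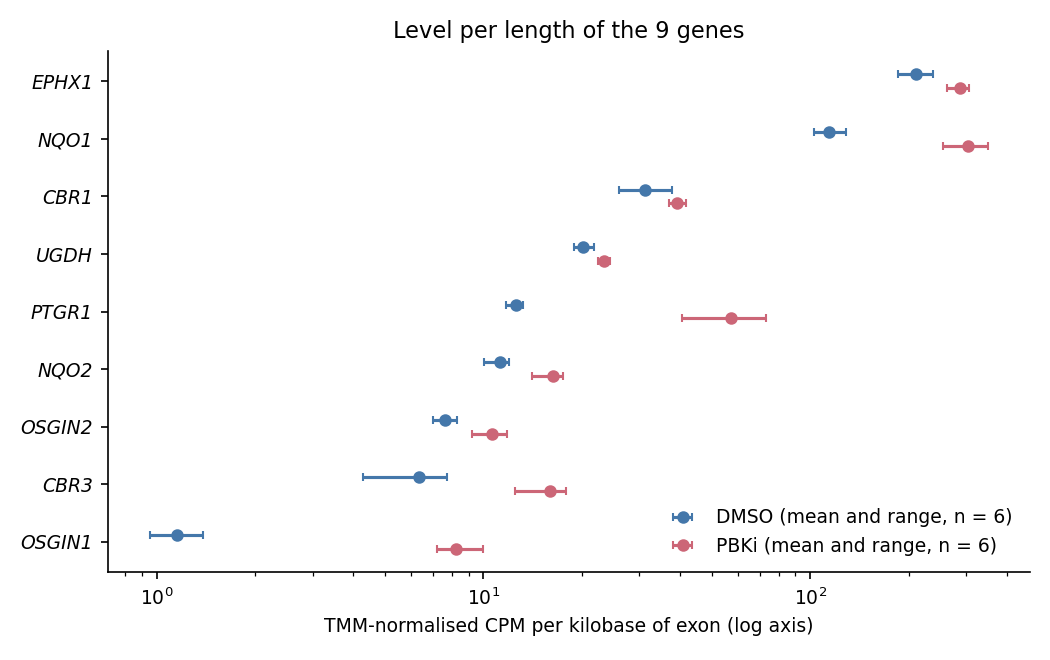
Level of each gene as TMM-normalised CPM per kilobase of exon on a log axis, in DMSO and PBKi, with points for means and bars for the lowest and highest of 6 libraries. At this length EPHX1 (211 in DMSO) and NQO1 (303 in PBKi) lead in their groups and OSGIN1 goes from 1.15 to 8.26, whereas at the length of the longest coding transcript EPHX1 leads in both and OSGIN1 goes from 2.88 to 20.6.

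The libraries of a group did not spread in the same way for all 9 genes. PBKi replicate 5 was the lowest PBKi library for 6 of the 9 genes and PBKi replicate 3 the highest for 5. These libraries were also the ends of the PBKi group on the first principal component of the data (21.7 and 41.5). Their order is therefore not read as a trait of the 9 genes. In DMSO, replicate 6 was lowest for 4 genes and the highest values were shared among replicates 1 to 5. Each gene was higher in PBKi in 6 of 6 pairs of libraries with the same number. For the 8 genes whose groups did not overlap this was fixed by that separation. The genes were also picked on this contrast, so nothing is read from the pairs. DMSO libraries 4 to 6 had less CBR1 (63.7 to 70.0 CPM) than DMSO libraries 1 to 3 (78.8 to 92.5 CPM), without overlap, whereas the PBKi sets overlapped.

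The difference between PBKi and DMSO was therefore also taken within replicates 1 to 3 and within replicates 4 to 6, sets that separated on a principal component in earlier results of these data. The log2 fold change of CBR1 was 0.19 (SE 0.063) in replicates 1 to 3 and 0.48 (SE 0.076) in replicates 4 to 6, and that of PTGR1 was 2.36 (SE 0.071) and 1.99 (SE 0.11). The test of the difference itself, the interaction of treatment with replicate set in edgeR, gave 0.29 for CBR1 (SE 0.099, unadjusted p = 0.00853) and -0.35 for PTGR1 (SE 0.14, unadjusted p = 0.0211). After adjustment over all genes neither passed (edgeR adjusted p = 0.927 for both). The other 7 genes had unadjusted p from 0.158 to 0.970 in edgeR. Across all 14505 genes, 0 passed after adjustment (0%), and 700 genes (4.83%) had an unadjusted p under 0.05. UGDH had a log2 fold change of 0.23 (SE 0.062) in replicates 1 to 3 and 0.22 (SE 0.073) in replicates 4 to 6. It was called in replicates 1 to 3 and was the only one of the 9 genes not called in replicates 4 to 6.

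**Figure D3:**
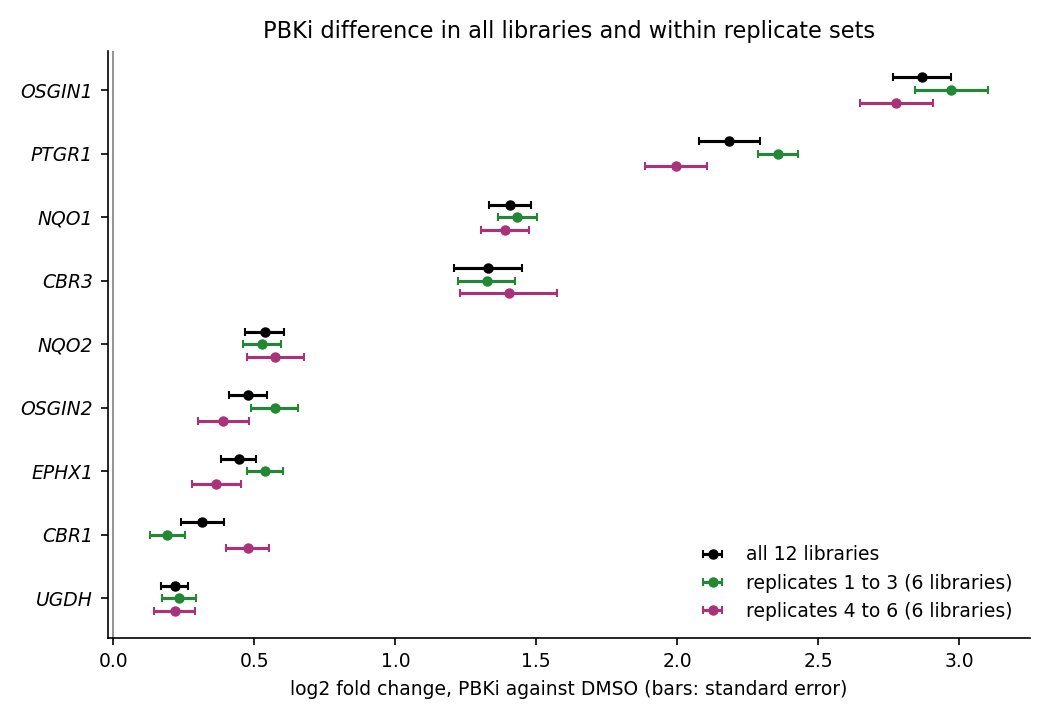
Log2 fold change of PBKi against DMSO with its standard error for the 9 genes, from all 12 libraries and from each set of 6 libraries. OSGIN1, PTGR1, NQO1 and CBR3 lie above 1 in all 3 fits, and the sets are farthest apart in units of SE for CBR1 (0.19 and 0.48) and PTGR1 (2.36 and 1.99).

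The genes whose profile over the 12 libraries was most like that of the 4 genes with the largest differences were found among 10039 other genes by the root mean square (RMS) difference of centred log2 CPM, a description that includes the contrast used to choose the 9. Nearest to NQO1 were UAP1L1 (RMS 0.083), ENSG00000250527, which has no symbol in the supplied tables (0.088), and ME1, the cytosolic malic enzyme that makes NADPH (0.095). UAP1L1 was at 24.2 CPM in DMSO and 61.5 CPM in PBKi, and ME1 at 198 and 567 CPM. CBR3 had ZC3H12A (0.16), CLU (0.16) and NQO1 itself (0.18) nearest. The nearest to PTGR1 were OPTN, an autophagy receptor (0.17), TRIM16L (0.17) and the histone gene H4C8 (0.18), and the last of these belongs to a family with near-identical copies that share reads. OSGIN1 had the least close neighbours among the genes searched, with ZNF554 at 0.18, PRSS23 at 0.26 and FGF13 at 0.30. ZNF554 was at 3.91 CPM in DMSO and 29.4 CPM in PBKi.

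The tested genes nearest to the 9 on their chromosomes, up to 1761087 bp away, were counted as neighbours. Of 34 neighbouring genes tested, 8 were higher, 9 lower and 17 not called, with a median log2 fold change of -0.019 against -0.012 over all genes tested. Over all genes tested, 20.1% were called higher and 21.5% lower, so nothing is read from these counts. Beside NQO1, NFAT5 and WWP2 were higher (log2 fold change 0.42, SE 0.12, edgeR adjusted p = 0.0104 and 0.41, SE 0.088, edgeR adjusted p = 0.00123) and NOB1 was lower (-0.21, SE 0.055, edgeR adjusted p = 0.00557). NECAB2, 1912 bp beyond OSGIN1, had the largest log2 fold change of these 34 at 1.08 (SE 0.19, edgeR adjusted p = 0.000240), at 0.917 CPM in DMSO and 1.94 CPM in PBKi.

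Other genes of detoxification were counted from 7 lists, written with earlier results of these data known. Of 86 other genes tested, 37 were higher (43.0%), 11 lower (12.8%) and 38 not called, with a median log2 fold change of 0.15. Some of the higher genes passed the filter on low counts only through the PBKi libraries. Over all genes tested, 20.1% were called higher and 21.5% lower, and the counts by list below stand beside these shares. The NRF2 system and its best known targets had 17 of 19 higher and 0 lower, with a median of 1.23. In every other list the median lay between -0.13 and 0.15. The members of that NRF2 list are already known to be higher in these data, so the count is no independent evidence. The 43.0% above includes these 17 genes and those that passed the filter only through PBKi, so nothing is read from it either.

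Among the other quinone and enone reductases, 4 of 11 were higher and 2 lower, with a median log2 fold change of 0.15. TXNRD1, the cytosolic thioredoxin reductase, rose from 619.9 ± 46.4 to 2024 ± 239 CPM (SD, n = 6 each, edgeR adjusted p = 1.84e-11). VAT1 had a log2 fold change of 0.38 (SE 0.088, edgeR adjusted p = 0.00206), and CRYZL1 fell by 0.39 on that scale (SE 0.088, edgeR adjusted p = 0.00173). The VAT1 call was lost in replicates 4 to 6 alone (edgeR adjusted p = 0.0940). Of 14 other carbonyl and aldo-keto reductases, 6 were higher and 2 lower, with a median of 0.062. Of the 6, AKR1B1, AKR1B10, AKR1C1, AKR1C2 and AKR1C3 passed the filter on low counts only through the PBKi libraries. The aldo-keto reductases AKR1C1, AKR1C2 and AKR1C3, which act on steroids and aldehydes, were near the limit of detection in DMSO, with at most 0.923 CPM in any library. In PBKi AKR1C1 was at 22.0 to 40.6 CPM, AKR1C2 at 56.6 to 107 CPM and AKR1C3 at 8.99 to 15.3 CPM, and all 3 are close copies between which reads could be split with error. CBR4, a mitochondrial relative of CBR1, fell by 0.28 on the log2 scale (SE 0.070, edgeR adjusted p = 0.00388), and did not pass in replicates 4 to 6 alone (edgeR adjusted p = 0.0553).

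Aldehyde dehydrogenases had 4 of 15 higher and 2 lower, with a median log2 fold change of 0.028. ALDH3A2, which oxidises fatty aldehydes, rose from 228 ± 12.1 to 491 ± 50.5 CPM (SD, n = 6 each), which is 1.10 on the log2 scale (SE 0.066, edgeR adjusted p = 8.67e-10). ALDH3A1, which passed the filter on low counts only through the PBKi libraries, was at 0.429 ± 0.181 CPM in DMSO and 3.42 ± 0.823 CPM in PBKi (SD, n = 6 each). ALDH1A3, a retinaldehyde dehydrogenase, had a log2 fold change of 0.40 (SE 0.099, edgeR adjusted p = 0.00331). In replicates 4 to 6 alone ALDH1A3 did not pass (edgeR adjusted p = 0.0574). Of 4 other epoxide hydrolases, 0 were higher and 2 lower, with a median of -0.13. LTA4H, which makes leukotriene B4, fell by 0.30 on the log2 scale (SE 0.066, edgeR adjusted p = 0.00130), beside EPHX2.

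The list of UDP-glucuronate supply and use had 4 of 10 higher and 1 lower, with a median log2 fold change of 0.13. PGM1, a phosphoglucomutase that feeds the UDP-glucose pathway, and its relative PGM2 had log2 fold changes of 0.24 (SE 0.074, edgeR adjusted p = 0.0137) and 0.26 (SE 0.045, edgeR adjusted p = 0.000165). In replicates 4 to 6 alone PGM1 did not pass (edgeR adjusted p = 0.226). UGT8, whose sugar donor is not UDP-glucuronate, fell by 0.20 on that scale (SE 0.080, edgeR adjusted p = 0.0469), a call that was lost under most other settings. Of 14 glutathione S-transferases, 3 were higher and 2 lower, with a median of 0.051. MGST1 rose by a log2 fold change of 0.56 (SE 0.070, edgeR adjusted p = 5.82e-06), whereas MGST2 fell by 0.41 (SE 0.061, edgeR adjusted p = 3.93e-05) and GSTO1 fell by 0.52 (SE 0.087, edgeR adjusted p = 0.000137).

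In the NRF2 list, the largest log2 fold changes were those of FTH1, the ferritin heavy chain, at 2.25 (SE 0.22, edgeR adjusted p = 3.52e-07), and SQSTM1, the autophagy receptor p62, at 2.15 (SE 0.086, edgeR adjusted p = 4.29e-12). KEAP1 rose from 88.3 ± 9.65 to 127 ± 4.41 CPM (SD, n = 6 each, log2 fold change 0.53, SE 0.063, edgeR adjusted p = 3.77e-06). NFE2L2 was at 120 ± 6.77 CPM in DMSO and 131 ± 3.65 CPM in PBKi (SD, n = 6 each, log2 fold change 0.13, SE 0.048, edgeR adjusted p = 0.0359), and its call was lost when single libraries were left out. PBK, the target of the inhibitor, was at 219 CPM in DMSO and 165 CPM in PBKi (log2 fold change -0.42, SE 0.095, edgeR adjusted p = 0.00194).

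**Figure D4:**
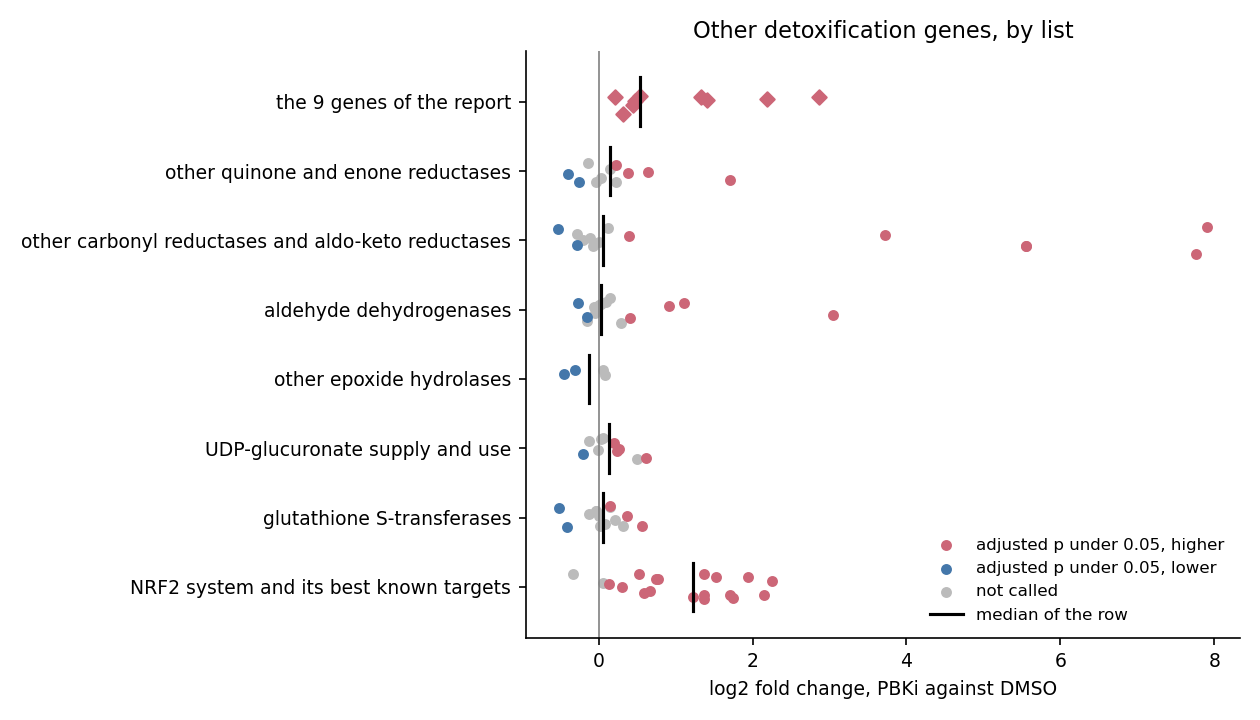
Log2 fold change of PBKi against DMSO for each gene tested in the 7 other lists and for the 9 genes, coloured by direction where the adjusted p was under 0.05, with a line at the median of each row. The NRF2 list has its median at 1.23 and the other 6 lists between -0.13 and 0.15, and the points above 3 are AKR1B1, AKR1B10, AKR1C1, AKR1C2, AKR1C3 and ALDH3A1.

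Reads on genes numbered 9663203 to 28029908 per library in DMSO and 13122415 to 22817803 in PBKi (two-sided exact permutation test, p = 0.905, 9 such tests, adjusted p = 0.905). The share of reads outside genes was 5.74% to 6.96% in DMSO libraries and 5.94% to 9.30% in PBKi libraries (exact permutation p = 0.206, adjusted p = 0.264). PBKi replicates 3 and 6 had the most. Without these libraries 9 of the 9 genes were called higher, with 2306 genes higher and 2076 lower in all. As the 9 were picked on this contrast, nothing is read from that count. Among the same reads, 3.87% to 4.10% fitted more than 1 gene in DMSO libraries, against 4.16% to 4.35% in PBKi libraries (exact permutation p = 0.00216, the smallest this test can give, adjusted p = 0.00487). Genes of the mitochondrial genome took 0.472% to 1.20% and 0.796% to 2.28% of counts (exact permutation p = 0.0130, adjusted p = 0.0195). Luminal prostate markers, with KLK3 as 45.4% of their sum, were present in every library and summed to 5084 to 6015 CPM in DMSO and 2790 to 3694 CPM in PBKi (exact permutation p = 0.00216, adjusted p = 0.00487), with 7 of 12 lower and 1 higher. In bulk RNA, fewer cells of a type and less RNA per cell cannot be told apart. Basal markers summed to 18.8 to 23.7 CPM in DMSO and 23.9 to 36.9 CPM in PBKi, of which DST was 94.6% (exact permutation p = 0.00216, adjusted p = 0.00487). Immune markers summed to 3.19 to 5.33 CPM and 5.97 to 7.24 CPM, of which CD68 was 82.0% (exact permutation p = 0.00216, adjusted p = 0.00487), and the T and B cell markers CD3D and MS4A1 were at 0 in every library. Fibroblast markers summed to 22.3 to 27.4 CPM and 21.3 to 26.2 CPM (exact permutation p = 0.509, adjusted p = 0.572). Endothelial markers, nearly all VWF, were lower in PBKi, at 3.14 to 4.63 CPM against 4.03 to 7.25 CPM in DMSO (exact permutation p = 0.0108, adjusted p = 0.0195). The part of these shares and marker levels in the differences above was not tested.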

How the data were processed

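RNAseq libraries of C4-2 cells (6 DMSO, 6 PBKi) were analysed from 47 lane files of counts. The authors mapped single-end reads on GRCh37 using TopHat2 2.0.4, counted reads per gene with HTSeq 0.5.3p9 and used DESeq 1.10.1, and the deposited values are raw counts per lane without normalisation. The labels and the study's methods name different RNA extraction kits. Lanes of a library (4, or 3 for DMSO replicate 5) were summed. Summary rows of HTSeq that name no gene were left out, and their shares are given with the results. The 14505 genes that reached 10 counts in 6 or more libraries were compared by edgeR 4.0.16 (R 4.3.3, TMM, quasi-likelihood test, Benjamini-Hochberg at 0.05, no covariates), after a test on simulated counts. CPM are TMM-normalised without a prior count. Depth was 9663203 to 28029908 reads on genes, and counting error is largest for CBR3 and OSGIN1.

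Groups came from the labels. The 9 genes and all lists were chosen with earlier results of these data known. Of 156 listed genes, 151 matched by symbol and 2 by a listed synonym. Other genes named were those overlapping or beside the 9, the 3 nearest profiles of each of the 9 whose log2 fold change reached 1, PBK, some relatives of the 9, and up to 3 called genes per list with the largest change and a mean log2 CPM of at least 1. Some items that these rules select are not reported here. AKR1B1, AKR1B10, CD3D, MS4A1, KLK3, DST, CD68 and VWF were named after their values were seen. Positions and exon lengths came from GENCODE 44 mapped to GRCh37, newer than the annotation of the authors. Exact permutation tests used all 924 divisions of the 12 libraries. Alternatives were DESeq2 1.42.0, limma-voom (limma 3.58.1), RLE factors, other count filters, lanes 6 to 8, replicate block or set, each set alone, a fold threshold, and leaving out libraries.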

Additional observations from a re-analysis of the deposited data

Results flagged for a closer look

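The ferritin heavy chain gene FTH1 had 269.8 CPM in DMSO replicate 5, where the other 5 DMSO libraries lay between 93.4 and 117.6 CPM. The gap was 0.863 of the range of the 6 libraries, above Dixon's 95% critical value for 6 samples, in 1 of 68 groups of 6 values examined, of which chance passes about 1 in 20. DMSO replicate 5 was also the library with 3 lanes and the fewest reads on genes (9663203). FTH1 has several processed copies in the genome that can share its reads. With DMSO replicate 5 left out, the log2 fold change of FTH1 was 2.58 in place of 2.25, and among the 9 genes no DMSO or PBKi library stood apart by this measure.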

How the results depend on the processing

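The 9 genes kept their direction under all 23 alternatives, which refit the libraries on which they were picked and so give no independent support. The only call lost was UGDH in replicates 4 to 6 (log2 fold change 0.22). When a log2 fold change of 0.5 or more in size was also required, 5 of the 9 were called. That threshold left 1278 genes higher and 626 lower in all, and 2 of the other detoxification genes lower. In replicates 4 to 6 alone, with 6 libraries, 1273 genes were higher and 1207 lower, with 24 and 7 of the other detoxification genes. Without PBKi replicates 3 and 6, an alternative chosen after seeing the data, 2076 genes were lower. With each library left out in turn, 2579 to 3364 genes were higher and 2618 to 3250 lower, the 9 genes stayed called, and of the other detoxification genes 33 to 40 were higher and 9 to 12 lower. With no minimum count, 32 genes passed the interaction test in place of 0, and the cause was not tested. Same-numbered libraries correlated in their deviations from the group means by 0.0887 to 0.299 over 6 pairs, 1 of them under 0.1. Of the 12 libraries, 8 correlated best with their own number. The main fit did not use the numbers as pairs, although these correlations were all positive. With a replicate block, 3485 genes were higher and 3803 lower, with 41 and 14 of the other detoxification genes and all 9 of the 9 higher. Levels per kilobase of the longest coding transcript kept the order of the 9 genes in DMSO, but in PBKi put EPHX1 (397) above NQO1 (356) and OSGIN1 (20.6) above CBR3 (16.0) and OSGIN2 (11.7). Depth limits CBR3 and OSGIN1 most, at 51 and 63 counts in the lowest DMSO library.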
